A study of Triticum aestivum with 2 samples.

Results

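The Wheat Genome Array carries control probe sets for 5 wheat genes that most cells use all the time, namely actin, elongation factor 1-alpha (ef1a), glyceraldehyde-3-phosphate dehydrogenase (gapdh), ubiquitin and the 18S ribosomal RNA. They were chosen by name. Of the 25 probe sets whose names start with AFFX-Ta- or AFFX-Ta_, 16 belong to these genes, out of 61290 probe sets on the array. Actin has 4 of them, ef1a 3, gapdh 5, ubiquitin 3 and 18S rRNA 1. In each name 5, M or 3 gives the region of the transcript that the probes cover, which is the 5' end, the middle or the 3' end. An _at probe set was designed for 1 transcript, whereas an _s_at probe set is shared by several and an _x_at probe set holds probes that may match others.

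Total RNA from spikes before and after anthesis, flag leaf, shoot and dark-germinated seed of the wheat genotype 'Chinese Spring' was pooled in equal parts, and the 1 pool was labelled in 2 ways. The library labelled Sense went through the 3'IVT assay, in which an oligo(dT) primer starts cDNA synthesis at the poly(A) tail and in vitro transcription then makes biotinylated cRNA. The library labelled Antisense went through the WT assay, which primes at random and labels the other strand, so that a sense-oriented probe set reads antisense transcripts. Each assay was hybridized once. The number of arrays therefore limits the precision, and neither an error between samples nor a test of a difference can be given. The names of the wheat controls hold no letter for the orientation of the design sequence, and their orientation is not given in the sources used here.

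Actin polymerizes into the filaments of the cytoskeleton, and ef1a delivers aminoacyl-tRNA to the ribosome. GAPDH catalyses an oxidation step of glycolysis, and ubiquitin is the small protein that marks others for the proteasome. Plant polyubiquitin genes encode repeated copies of it in 1 transcript. The 18S rRNA is the RNA of the small ribosomal subunit and, unlike most mRNAs, normally carries no poly(A) tail. Probe sets for the 5' end, middle and 3' end of such genes are placed on expression arrays to show how evenly a labelled target covers a transcript.

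The deposited signals are linear MAS5 intensities, and their log2 was used. As a reference, each value was set against the lowest of the 9 probe sets for bioB, a bacterial gene whose labelled target is added just before hybridization near the detection limit. This reference was a signal of 828 (9.69 on the log2 scale) from AFFX-Tae-r2-Ec-bioB-5_at on the 3'IVT array, while on the WT array AFFX-BioB-5_at set it at 37298 (15.19). It lay far higher above the bulk of the array in the WT assay, where the median log2 signal of the 61115 wheat probe sets was 8.01, against 6.63 for 3'IVT. Background was taken from 63 of the 64 probe sets named as reporter genes. The other 1 was left out because its signals were at or above bioB in both assays. The highest log2 signal of the 63 was 7.02 (3'IVT) and 11.76 (WT), called the highest reporter gene below. Whether wheat carries any of these sequences was not tested. Where several probe sets read 1 region of a spiked-in control, their SD was 0.32 log2 units (3'IVT) and 0.26 (WT). As a marker of green tissue, a RUBISCO small subunit probe set reached a 3'IVT log2 signal of 15.57. Of 17 probe sets for gliadins, glutenins and avenin-like proteins of the grain, 4 (23.5%) were above bioB in that assay. That is near the 17.3% of all wheat probe sets. These 17 include Ta.160.2.A1_at, Ta.28632.1.A1_at and Ta.24114.15.A1_x_at, where A1 marks a design named as antisense-oriented. They had 1.74, 3.92 and 1.15 with 3'IVT, and 13.89, 14.63 and 7.62 with WT. The 1 probe set for amylase, also a grain marker, was above bioB with 3'IVT (Ta.3.1.S1_at, 11.24).

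Of the 16 wheat control probe sets, 7 exceeded the lowest bioB probe set in the 3'IVT assay, where 17.3% of all wheat probe sets did. These were the 3 for ubiquitin, 3 of the 4 for actin and the 1 for 18S rRNA. In the WT assay 2 of the 16 were above it, the 5' ubiquitin and the 18S rRNA probe sets, beside 0.367% of all wheat probe sets. Both were also above it in the 3'IVT assay, and 0.208% of wheat probe sets were above in both. All 8 probe sets for ef1a and gapdh were below bioB in both assays. Against the highest reporter gene, 9 of the 16 were above in the 3'IVT assay (44.9% of wheat probe sets) and 4 in the WT assay (3.26%), namely the 5' probe set of actin, the 5' and middle probe sets of ubiquitin, and 18S rRNA.

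**Figure D1:**
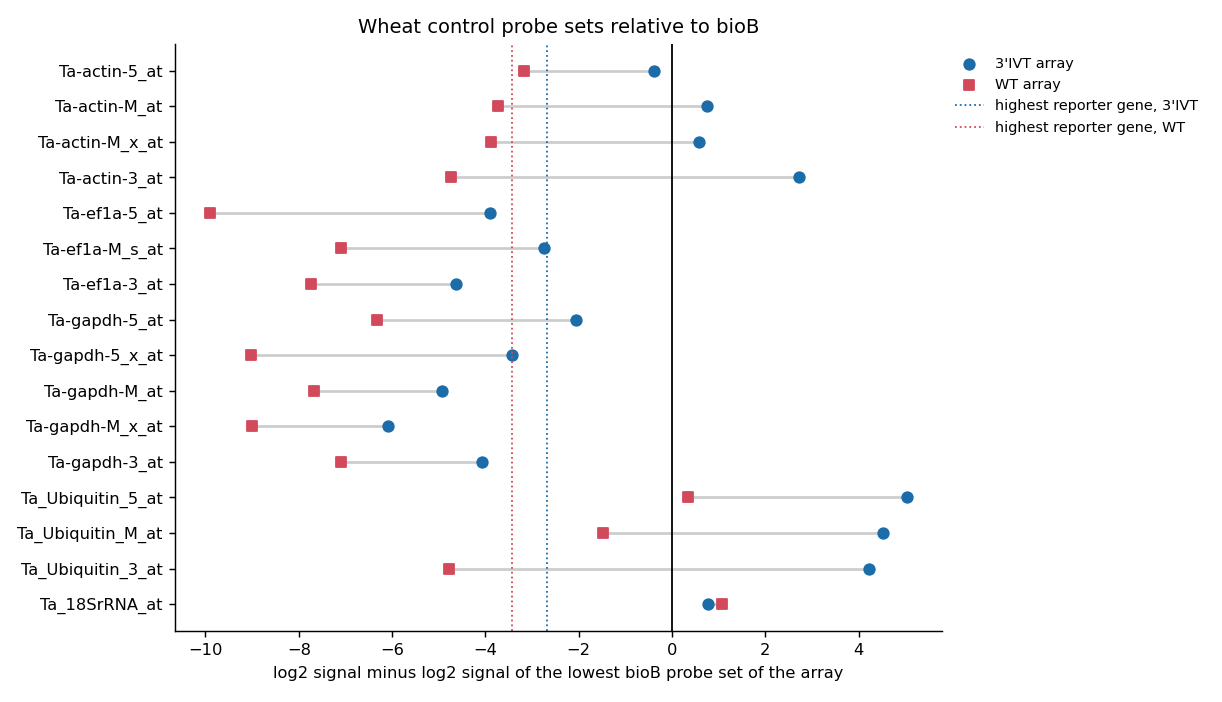
Log2 signal of each of the 16 wheat control probe sets minus that of the lowest bioB probe set of the same array, for the 3'IVT array (blue circles) and the WT array (red squares). The solid line at 0 is bioB and the dotted lines are the highest of 63 reporter gene probe sets on each array. Thus 7 circles and 2 squares lie to the right of 0, and 18S rRNA is the only probe set whose square lies to the right of its circle. On the WT array bioB lay further above the wheat median than on the 3'IVT array, so a median wheat probe set would also have its square to the left.

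Ubiquitin gave the brightest control signals of the 3'IVT assay. Its 5' probe set (AFFX-Ta_Ubiquitin_5_at) had a log2 signal of 14.73, its middle probe set 14.21 and its 3' probe set 13.91. All 3 lay between 4.22 and 5.03 log2 units above bioB, and the 5' probe set, at 32.7 times the bioB signal, was brighter than 99.8% of wheat probe sets. On the WT array the same 3 probe sets had log2 signals of 15.53, 13.70 and 10.41. The signal thus fell from the 5' end to the 3' end in both assays, by 0.81 log2 units or 1.76 times with 3'IVT. The WT signal of the 3' probe set was 1.35 log2 units below the highest reporter gene and so has only an upper bound. Against that reporter the 5' end was at least 13.6 times brighter, or 3.77 log2 units, where the measured difference was 5.12. This bound does not hold against the reporter probe set left out of the background, which was at or above bioB. Only the 5' end was above bioB in the WT assay, by 0.34 log2 units or 1.27 times. This is close to the SD of 0.26 between spiked-in probe sets, and against the median bioB probe set the value was -0.61. The 3' probe set was 4.78 log2 units below bioB in the WT assay, and 2 of the 63 reporters were at or above it.

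The 18S rRNA probe set (AFFX-Ta_18SrRNA_at) was the brightest control of the WT assay and the only member that stood higher over bioB in that assay than in the 3'IVT assay. Its 3'IVT log2 signal was 10.46, 0.77 above bioB and higher than 88.5% of wheat probe sets. Its WT log2 signal was 16.26, 1.07 above bioB and higher than 99.8% of wheat probe sets. Relative to bioB the 2 assays thus differed by 0.30 log2 units, a value of the size of the SD between spiked-in probe sets. For the other 15 members the WT value was lower by 2.75 to 9.00 log2 units. A wheat probe set at the median of each array would also be lower with WT on this scale. There bioB was at 15.19 against a wheat median of 8.01, and with 3'IVT it was at 9.69 against 6.63. The paper holds that expression values of the 2 arrays cannot be compared validly. With the highest bioB probe set as the reference, 18S rRNA was below it in both assays, at -0.068 and -0.33. The methods name no removal of rRNA before labelling, and with 1 probe set the region of the 18S rRNA that was read cannot be compared with another.

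Measured actin signals ran in opposite order along the transcript in the 2 assays, although in the WT assay only the 5' end was above the highest reporter gene. In the 3'IVT assay the log2 signal rose from 9.31 at the 5' end (AFFX-Ta-actin-5_at) through 10.45 and 10.28 in the middle (AFFX-Ta-actin-M_at and AFFX-Ta-actin-M_x_at) to 12.41 at the 3' end (AFFX-Ta-actin-3_at). The 3' signal was 8.55 times the 5' signal, a difference of 3.10 log2 units, and the 5' probe set alone was below bioB, by 0.38. With WT labelling the order was turned, with 12.02 at the 5' end, 11.45 and 11.30 in the middle and 10.45 at the 3' end. The 3' minus 5' difference was -1.57 as measured, but the 3' probe set lay 1.32 log2 units below the highest reporter gene. Against that reporter the 5' end was at least 1.19 times brighter, a bound of 0.26 log2 units of the size of the SD between spiked-in probe sets. The reporter probe set left out of the background was brighter than the 5' actin probe set in the WT assay, so this bound rests on leaving it out. The 2 middle probe sets differed from each other by 0.17 log2 units (3'IVT) and 0.16 (WT), less than any step from one region to the next in the same assay. All 4 actin probe sets were 3.17 to 4.74 log2 units below bioB in the WT assay on this scale, although they were brighter than 90.2 to 97.3% of wheat probe sets on that array.

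The ef1a controls (AFFX-Ta-ef1a-5_at, AFFX-Ta-ef1a-M_s_at and AFFX-Ta-ef1a-3_at) gave signals in the range of the reporter genes. In the 3'IVT assay the log2 signals were 5.79 at the 5' end, 6.95 in the middle (_s_at) and 5.07 at the 3' end, which lie 2.75 to 4.62 below bioB. The WT values were 5.29, 8.09 and 7.45. Of the 63 reporter probe sets, 47 were at or above the 5' ef1a probe set in the WT assay, 15 were at or above the middle one and 24 the 3' one. The middle probe set was the highest of the 3 in both assays, and the 3' minus 5' difference was -0.72 (3'IVT) and 2.16 (WT). In the 3'IVT assay fewer reporters were at or above these probe sets, namely 4 for the 5', 1 for the middle and 7 for the 3' probe set. All 3 were above the median reporter of that assay, 3.10. Since all 3 ef1a probe sets lay below the highest reporter gene in both assays, these differences describe signals within the range of the reporters.

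The 5 gapdh controls were similarly dim. In the 3'IVT assay the 5' probe sets had log2 signals of 7.63 (AFFX-Ta-gapdh-5_at) and 6.26 (AFFX-Ta-gapdh-5_x_at), those for the middle 4.77 (_at) and 3.60 (_x_at), and the 3' probe set 5.62. The 5' _at probe set, which was above the highest reporter gene in this assay, was the only one of the 8 for ef1a and gapdh to exceed it in either assay. With WT labelling the 5' probe sets had 8.86 and 6.17, those for the middle 7.51 and 6.19, and the 3' probe set 8.08. Probe sets for the same region disagreed here. The _at probe set was higher than the _x_at probe set at the 5' end by 1.37 log2 units (3'IVT) and 2.69 (WT), and in the middle by 1.17 and 1.32. The sign of the 3' minus 5' difference in the WT assay rested on this choice, with 0.56 from the mean of both 5' probe sets and -0.78 from the _at probe sets only.

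**Figure D2:**
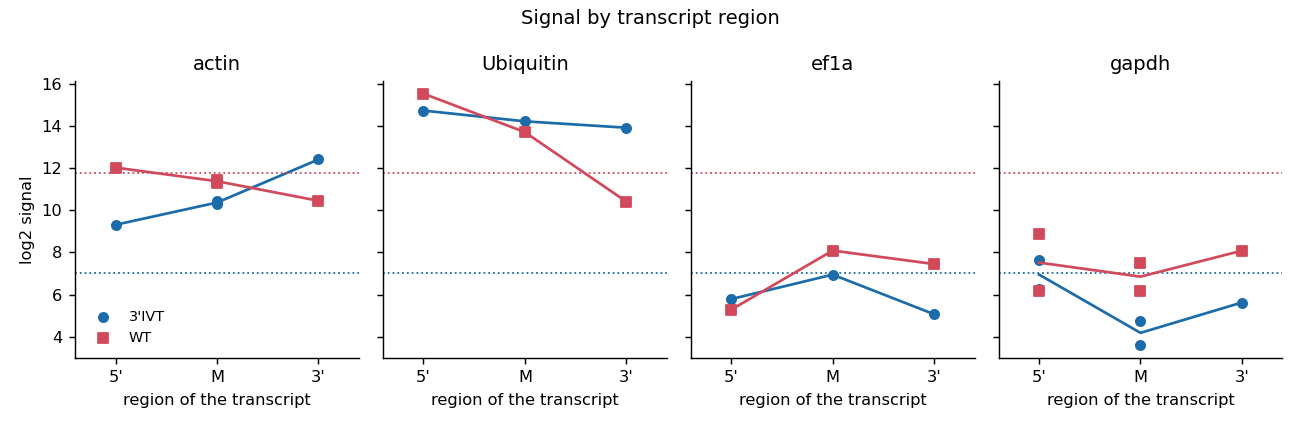
Log2 signal of the 5', middle (M) and 3' probe sets of actin, ubiquitin, ef1a and gapdh on the 3'IVT array (blue circles) and the WT array (red squares). Points are single probe sets, lines join the mean of each region, and dotted lines are the highest reporter gene of each array; the actin lines cross, from 9.31 to 12.41 in the 3'IVT and from 12.02 to 10.45 in the WT assay, and the ef1a and gapdh points lie near or below the dotted lines.

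A difference between probe sets within 1 array holds the differences between their probes as well as those between regions. The change of the 3' minus 5' difference from the 3'IVT to the WT assay removes any such part that is the same in both assays, and any constant by which an array was scaled. This change was -4.67 log2 units for actin and -4.31 for ubiquitin, and in both it rests on a WT 3' probe set below the highest reporter gene. With those probe sets raised to that reporter it was -3.35 and -2.95. These bounds too rest on leaving 1 bright reporter probe set out of the background. The measured change was 2.88 for ef1a and 1.89 for gapdh, in the other direction with WT signals wholly in the reporter range. After quantile normalization of the arrays the change for ubiquitin became -2.33.

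The same quantity was taken from controls of other origin. For the spiked-in bacterial and phage genes bioB, bioC, bioD and creX, which do not pass through priming and labelling with the RNA, it lay between -0.77 and 0.72 over 12 designs, with a median of -0.18 and an SD of 0.25 between designs of 1 gene. The values of actin and ubiquitin, as measured and as bounds, were outside the range of these controls. The array also carries 14 designs for the Bacillus genes dap, lys, phe, thr and trp, which are made for adding to total RNA before labelling. Whether they were added is not given in the sources used here. The change was below 0 in 13 of the 14, with a median of -3.41, a range of -5.62 to 0.33 and an SD of 1.63 between designs of 1 gene, and actin and ubiquitin lay inside this range. The brightest of them, dap, had median log2 signals of 8.82 at the 5' end and 10.73 at the 3' end in the 3'IVT assay, and 12.04 and 10.77 in the WT assay, the same crossing as actin. The 3' probe sets of all 14 designs were below the highest reporter gene in the WT assay, and so were the 5' probe sets of 12. In its first and r2 designs the middle probe set lay between the ends in both assays, as it did for actin, and in the Tae design it did not. No test of actin or ubiquitin against these controls was made, as each has a single value.

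The 3 other wheat genes with controls on the array, sucrose synthase (Sucsyn), glucose-6-phosphate dehydrogenase (G-6-PDH) and CYP86-TA, changed by -2.35, -2.22 and -2.24, in the direction of actin and ubiquitin and with WT signals below the highest reporter gene at both ends. Their 3' minus 5' difference in the 3'IVT assay was 4.85, 2.35 and 1.19, so that with actin 4 of the 7 wheat genes were brighter at the 3' end in that assay, whereas ubiquitin, ef1a and gapdh were brighter at the 5' end.

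**Figure D3:**
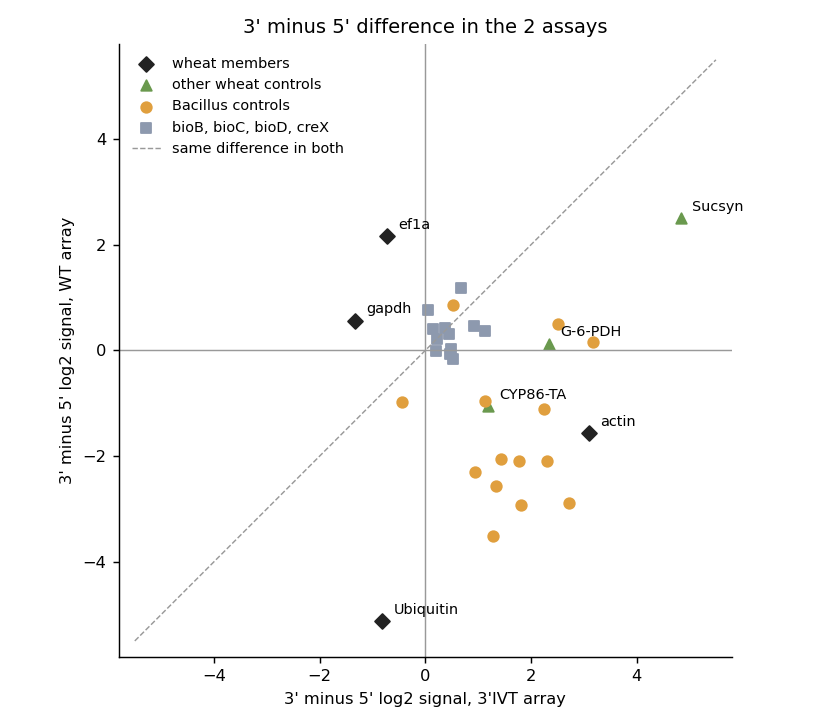
The 3' minus 5' difference of log2 signal in the WT array (vertical) against that in the 3'IVT array (horizontal), 1 point per gene and design, with members as black diamonds. Points on the dashed line have the same difference in both assays; the 12 spiked-in designs lie near it, actin (3.10 and -1.57) and ubiquitin (-0.81 and -5.12) lie far below it among or beyond the Bacillus designs, and ef1a and gapdh lie above it.

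Other probe sets of the array for related genes were taken from the platform annotation, which names 1273 of the 61290 probe sets and none of the 16 members. It lists no actin, GAPDH, ubiquitin or rRNA gene by symbol or synonym. For elongation factor 1-alpha it lists TEF1, the usual symbol of this gene, with 2 probe sets. Ta.659.2.S1_x_at had log2 signals of 14.96 (3'IVT) and 14.23 (WT), and Ta.659.3.S1_x_at had 14.51 and 12.99. Both were above the highest reporter gene in either assay, which none of the ef1a controls was. Probe sets differ in the sequence of their probes, so their levels give no measured difference between one gene and another here or below. The TEF1 probe sets were 4.82 and 5.27 above bioB in the 3'IVT assay, and below it in the WT assay, at -2.20 and -0.96.

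Of the 19 probe sets for these and other related genes, 15 were above bioB in the 3'IVT assay. Both probe sets for profilin, which binds actin monomers, were above bioB, with log2 signals of 13.38 (Ta.5057.1.S1_x_at) and 14.49 (Ta.5057.3.A1_at). Of 10 probe sets for tubulins, the subunits of microtubules, 9 were above it, with a median of 12.21 and a highest value of 14.79 at Ta.1544.1.S1_at. In glycolysis, phosphoglycerate kinase, which acts on the product of GAPDH, had 14.62 at Ta.2307.1.S1_at. Phosphofructokinase had 5.06 at Ta.4637.1.A1_at. The A1 in its name and in that of the brighter profilin probe set marks a design named as antisense-oriented. The same holds for the tubulin probe sets Ta.214.2.A1_at (11.81) and Ta.214.2.A1_x_at (11.95), both above bioB. With WT the profilin A1 probe set had 11.28, the tubulin ones 10.27 and 10.30, and the phosphofructokinase one 11.57. The counts above bioB thus mix designs named for both orientations, and which strand of the gene each reads was not tested. Of 3 probe sets for the ubiquitin conjugating enzymes UBC1 and UBC2, 1 was above bioB (Ta.2711.1.S1_x_at, 13.83).

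On the WT array none of these 19 probe sets was above bioB, where 0.367% of all wheat probe sets were. The brightest were TEF1 Ta.659.2.S1_x_at at 14.23, phosphoglycerate kinase at 13.73, and a tubulin at 12.51 (Ta.812.1.S1_x_at). The ubiquitin conjugating enzyme had 11.64, phosphofructokinase 11.57 and profilin 11.52 (Ta.5057.1.S1_x_at).

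**Figure D4:**
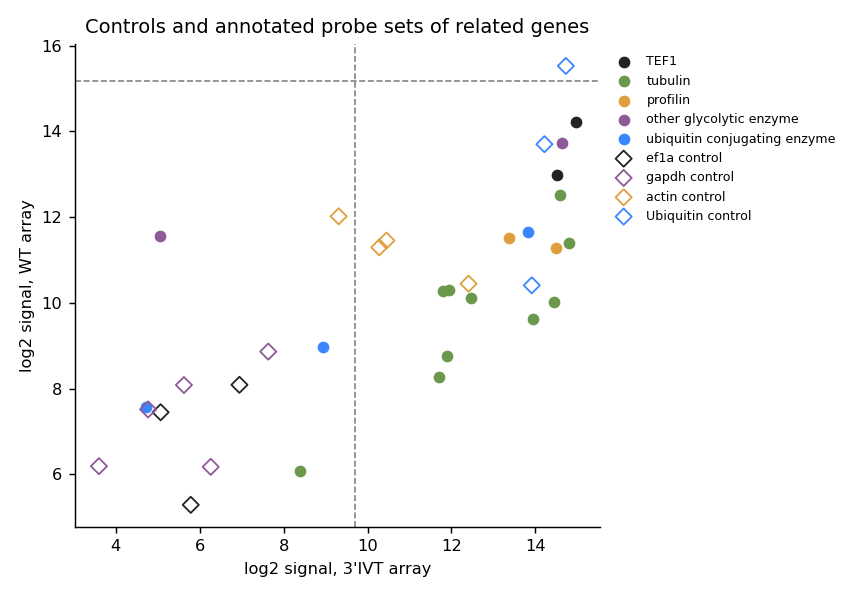
Log2 signal in the WT array against that in the 3'IVT array for probe sets of related genes (filled circles) and for the control probe sets of 4 genes (open diamonds). Dashed lines mark the lowest bioB probe set of each array, 9.69 and 15.19; the TEF1 circles are at 14.96 and 14.51 on the horizontal axis, the ef1a diamonds reach 6.95, and only the 5' ubiquitin diamond lies above both lines.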

How the data were processed

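RNA pooled from several tissues was read on 2 Wheat Genome Arrays, 1 per assay. The authors deposited 1 signal intensity per probe set and array, made with MAS5 per the labels, a summary over the probes of each set that corrects for background and scales every array separately. The 2% trimmed means were 500.3 and 500.2. Other lists of the study used RMA values and Present calls, which were not used here.

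The log2 of each signal was taken, with no normalization between arrays. Members were found by name. The rule gives 16; the count had been planned over 14 listed by name, and both are given. Probe sets of 1 gene and region were averaged for 3' minus 5' differences. The 61115 wheat probe sets leave out 111 Affymetrix controls and 64 reporter gene probe sets. Of these 64, 1 with signals above bioB in both assays was also left out of the background. With 1 array per assay there was no test.

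Symbols came from the platform annotation (1 symbol for 1273 probe sets, several for 0, none for 60017), of which 1272 were found in RefSeq's gene table (assembly IWGSC CS RefSeq v2.1), which gave names and nothing else. Named probe sets are the members, the lowest bioB of each array, the brightest of each gene family per assay, and the 2 annotated probe sets nearest in signal to the brightest 3'IVT probe set of each gene. Any other name was picked with its values known. Members and lists were chosen with earlier results of these data known.

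Alternatives were other bioB references, log2(signal + 16), quantile normalization, subtracting the spike-in difference, other probe set suffixes, a reporter threshold and, added later, signals below the highest reporter raised to it. Software was matplotlib 3.10.9, scipy 1.17.1, pandas 2.3.3, numpy 2.4.6 and Python 3.11.15, and the steps were tested on simulated data.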

Additional observations from a re-analysis of the deposited data

Results flagged for a closer look

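As measured, the slope along the transcript had opposite signs in the 2 assays for 3 of the 4 genes with a 5' and a 3' probe set. With 1 array per assay the difference was not tested. For actin the 3' minus 5' log2 difference was 3.10 (3'IVT) and -1.57 (WT). For ef1a it was -0.72 and 2.16, and for gapdh -1.32 and 0.56, both from signals mostly below the highest reporter gene. With _at probe sets only, gapdh was -2.01 and -0.78, of the same sign in both assays. The WT value of actin rests on a 3' probe set below the highest reporter gene, and was -0.26 with that probe set raised to the reporter.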

How the results depend on the processing

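No paired analysis was possible because each assay has 1 array. With the highest bioB probe set as the reference, 4 members were above it with 3'IVT, 0 with WT and 0 with both. The 2 middle actin probe sets then had -0.081 and -0.25 (3'IVT), 18S rRNA -0.068 (3'IVT) and -0.33 (WT), and 5' ubiquitin -1.07 in the WT assay. With the median bioB, 5' ubiquitin had -0.61, and 1 member was above in the WT assay and in both. With the median bioB of the same region the count was 1 for both, over 15 members. With the highest reporter as threshold it was 4 for both. The share of all wheat probe sets was not taken at these other bioB references, nor in both assays at the reporter threshold. These counts therefore cannot be set against the whole array. Of the 14 probe sets first listed by name, 5 exceeded the lowest bioB with 3'IVT and 2 with WT, beside 17.3% and 0.367% of all wheat probe sets.

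The sign of the 3' minus 5' difference changed in 1 of 40 alternative values, 12 of which repeat the main value because the probe sets used were the same, for gapdh in the WT assay (-0.78 with _at probe sets only). Values that moved by more than the spread between spiked-in designs follow. With _at probe sets only, gapdh was -2.01 in the 3'IVT assay and changed by 1.23 between assays, while with _x_at probe sets it was -0.64 (3'IVT) and 1.91 (WT) and changed by 2.55. With log2(signal + 16), ef1a was 1.79 in the WT assay and changed by 2.31, and gapdh changed by 1.59. After quantile normalization, actin was 2.72 in the 3'IVT assay, gapdh changed by 1.62, and ubiquitin was -2.20 and -4.53 and changed by -2.33. After subtracting the mean spike-in difference, the 3'IVT and WT values were 2.62 and -1.90 for actin, -1.19 and 1.83 for ef1a, -1.80 and 0.24 for gapdh, and -1.28 and -5.45 for ubiquitin. Raising probe sets below the highest reporter to it, chosen after seeing the data, gave WT values of -0.26 for actin and -3.77 for ubiquitin and changes of -3.35 and -2.95, while ef1a and gapdh have no bound because their WT signals were all below it. The change of actin moved by less than the spread under the 3 other alternatives that could alter it. The causes were not tested. Signals of ef1a and gapdh near those of reporter genes limit what their slopes can show.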

Other observations

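The array holds controls for 3 further wheat genes of metabolism. Sucrose synthase, which splits sucrose for use in growing tissue, had log2 signals of 7.11 at the 5' end, 9.53 in the middle and 11.96 at the 3' end in the 3'IVT assay, so that only its 3' end was above bioB, by 2.27. In the WT assay it had 8.95, 10.85 and 11.45, the only one of the 7 wheat genes whose signal rose from the 5' end through the middle to the 3' end in both assays. Glucose-6-phosphate dehydrogenase, the entry enzyme of the oxidative pentose phosphate pathway, had 8.92, 10.33 and 11.27 in the 3'IVT assay, with the middle and 3' probe sets above bioB, and 9.39, 8.80 and 9.52 in the WT assay. The CYP86-TA probe sets had 7.15, 7.35 and 8.34 in the 3'IVT assay and 8.76, 10.77 and 7.71 in the WT assay. All 9 probe sets of these genes were below bioB and below the highest reporter gene in the WT assay. Most of the array was too, since 0.367% and 3.26% of all wheat probe sets were above them.

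Among annotated probe sets, those nearest to the 3' actin probe set over the 2 log2 signals were Ta.28955.1.S1_at (FKBP70, at a distance of 0.03 log2 units) and Ta.4091.1.S1_s_at (raftin1b, 0.12). The nearest to 5' ubiquitin was Ta.136.1.S1_at (thioredoxin Trx-M, 0.21), with 14.65 and 15.33. For the brightest ef1a control they were TaAffx.15243.1.S1_at and Ta.24087.2.S1_a_at (0.03 and 0.16) and for the brightest gapdh control Ta.28514.2.S1_s_at and TaAffx.19661.1.S1_at (0.15 and 0.18). The second nearest to 5' ubiquitin was TaAffx.120885.1.S1_s_at (0.52). No annotated probe set lay near 18S rRNA, the closest being TaAffx.7339.1.S1_at (1.38) and Ta.28714.1.A1_s_at (2.00). A distance over 2 arrays describes these signals alone.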
